A study of Homo sapiens with 6 samples.

Results

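Among 105438 regions of open chromatin found in RH30 cells, 9466 distal regions carried an E-box with the central bases GC (CAGCTG) and no AP-1 site, and they are described here. Peaks of the 6 libraries were merged where they overlapped, and the 47847 regions called in every library were kept. Of these, 37231 had their top summit over 2 kb from the 5′ end of any protein-coding gene. The members are those that held CAGCTG within 100 bp of that summit and lacked the AP-1 consensus TGACTCA or TGAGTCA there. They were chosen by being called in every library, by the position of the summit and by the letters around it, so neither their presence in all libraries nor their E-box is a result. The size of the difference between the groups was not used to choose them, but the summit was that of the highest fold enrichment in any library, so the group that was higher set where the letters were read. That summit came from a vector library in 42.1% of members, against 26.2% of all shared regions. The other shared distal regions held neither site (19740), an AP-1 site only (5749) or both sites (2276).

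ATAC-seq, in which the Tn5 transposase inserts sequencing adapters into accessible DNA, was performed on RH30, a fusion-positive rhabdomyosarcoma cell line. The study asked how the loss of MyoD changed chromatin in these tumor cells. All cells were transduced with Cas9, and 3 libraries came from vector cells with non-targeting scramble guides and 3 from MyoD-deleted cells with guides against MyoD. The labels call the replicates of each group biological, without naming separate cultures, so p-values measure the spread between these libraries. The paper's results name RH30-SR cells, which carry the IκBα super repressor, for this assay, whereas its methods and the labels name RH30. It also describes MyoD-deleted lines selected as clones, and whether the libraries came from 1 clone is not given in the sources used here.

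E-boxes are the short DNA sites bound by basic helix-loop-helix (bHLH) factors. MyoD, the bHLH factor that commits cells to skeletal muscle, binds as a dimer with an E protein (TCF3, TCF4 or TCF12) and prefers E-boxes with the central bases GC or GG. The same palindromic E-box can be bound by other bHLH dimers, among them myogenin and neural factors, and AP-1 sites are bound by dimers of FOS and JUN proteins at many enhancers.

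The E-boxes nearest the summit are shown first, from GRCh38 (hg38), plus strand, 5′ to 3′, with the CAGCTG in capitals and 30 bases on each side. Regions are named by the gene with the nearest 5′ end, which does not show that they act on it. The first 5 are among the 8 largest falls in rank, the next 3 are among the largest rises, and 4 lie nearest genes of 4 lists (myogenic regulators, membrane genes, PAX3-FOXO1 associated genes and TEAD genes).
LMO3 region (chr12:16973430-16973495): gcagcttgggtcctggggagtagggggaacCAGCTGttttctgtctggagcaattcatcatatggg
DIAPH2 region (chrX:95754538-95754603): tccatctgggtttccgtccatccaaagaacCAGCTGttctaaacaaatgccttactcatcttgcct
UNC80 region (chr2:209600425-209600490): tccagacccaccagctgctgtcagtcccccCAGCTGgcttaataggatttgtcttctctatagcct
RPL7L1 region (chr6:42844705-42844770): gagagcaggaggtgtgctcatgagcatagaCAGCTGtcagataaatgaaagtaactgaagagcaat
MCUB region (chr4:109574676-109574741): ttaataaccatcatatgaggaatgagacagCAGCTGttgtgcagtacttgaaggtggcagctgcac
IGFBP7 region (chr4:57081294-57081359): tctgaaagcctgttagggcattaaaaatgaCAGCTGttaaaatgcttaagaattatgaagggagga
OLAH region (chr10:15035995-15036060): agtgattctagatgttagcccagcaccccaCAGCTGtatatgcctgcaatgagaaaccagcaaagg
CTDSP2 region (chr12:57838161-57838226): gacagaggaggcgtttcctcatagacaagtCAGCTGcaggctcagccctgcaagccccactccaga
EYA2 region (chr20:46811269-46811334): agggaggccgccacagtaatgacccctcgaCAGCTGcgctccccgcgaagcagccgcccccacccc
SGCD region (chr5:155839784-155839849): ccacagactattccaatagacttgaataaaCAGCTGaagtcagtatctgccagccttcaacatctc
FGFR2 region (chr10:121310303-121310368): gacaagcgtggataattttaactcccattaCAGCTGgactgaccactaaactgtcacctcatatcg
TEAD4 region (chr12:3003767-3003832): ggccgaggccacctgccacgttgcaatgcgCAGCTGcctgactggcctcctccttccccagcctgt
The same core thus stood in regions with a lower and with a higher rank after deletion. The bases beside it differed among some of them and recurred in others. ACAGCTGT stood in the RPL7L1 region, which fell, and in the IGFBP7 and OLAH regions, which rose.

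The libraries held 63068 to 80530 peaks on chromosomes 1 to 22 and X. The deposited lists give no read totals. The smallest local background in a library, which stands in for its depth, was between 2.22 and 3.41 fragments, highest in vector replicate 1. Of 10 skeletal muscle marker genes, 8 had a region called in all libraries within 2 kb of the 5′ end, against 0 of 5 for blood, 0 of 5 for endothelium and 0 of 5 for epithelium. RNA and protein were not measured in these libraries, so the deletion itself could not be checked in them. Fold enrichment is the pileup of fragments at a summit over the local background, and it was ranked from 0 to 100 among the shared regions within each library.

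Distal regions with only an E-box ranked lower after MyoD deletion. Their median rank was 48.6, 50.1 and 49.2 in vector replicates 1 to 3 and 40.5, 38.4 and 42.9 in MyoD-deleted replicates 1 to 3, and the groups did not overlap. The group means of these medians were 49.3 ± 0.76 (SD, n = 3) and 40.6 ± 2.22 (SD, n = 3). Regions with neither site held the reverse order, with medians of 40.3 to 40.7 in vector and 42.7 to 43.2 in MyoD-deleted libraries. In vector libraries the median of the E-box-only regions thus lay 7.84 to 9.80 points above that of regions with neither site, and in MyoD-deleted libraries it lay between 4.74 points below and 0.04 points above it. Regions with AP-1 only moved from medians of 40.3 to 46.2 up to 47.3 to 52.3. A rank is relative to the other shared regions. Median fold enrichment of the E-box-only regions was 8.62, 8.75 and 8.57 in vector and 8.10, 8.60 and 9.09 in MyoD-deleted libraries, with overlap. Over all shared regions it was 8.64 to 8.76 in vector and 9.06 to 9.92 in MyoD-deleted libraries.

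**Figure D1:**
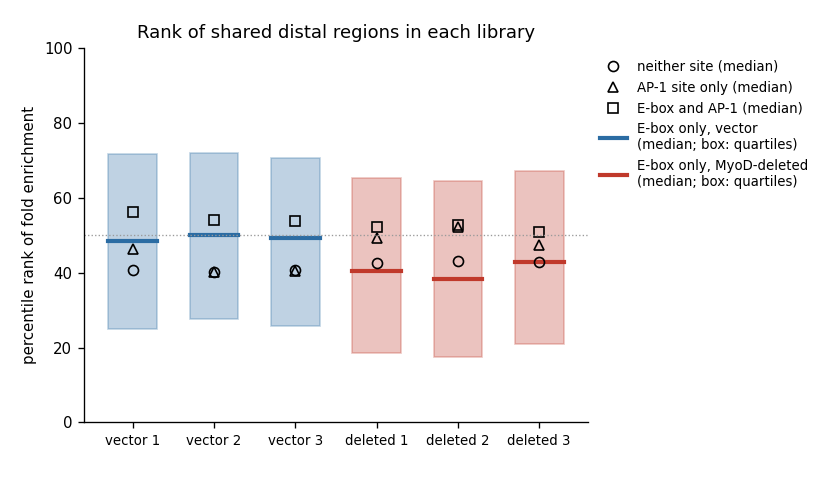
Percentile rank of fold enrichment (vertical axis, 0 to 100 among 47847 shared regions) in each of the 6 libraries. Lines and boxes give the median and quartiles of the 9466 E-box-only regions, and open symbols the medians of the other shared distal classes; the E-box-only medians of 38.4 to 42.9 in MyoD-deleted libraries lie below all 3 vector medians.

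By region, the rank fell in 1076 members (11.4%) and rose in 193 (2.04%) at an adjusted p under 0.05 (limma, adjusted over all 47847 shared regions). Over all shared regions the background was 4.67% called lower and 4.12% called higher. The median change within a region was −4.09 points, with quartiles of −13.5 and 2.89, and 65.1% of members changed downward, against a median of −0.080 points over all shared regions. Among members called lower the median change was −29.9 points, and among those called higher it was 26.5 points. Another 8197 members passed in neither direction. With 1 library left out, 405 members were lower without vector replicate 2, 498 without vector replicate 3, 577 without MyoD-deleted replicate 1 and 421 without MyoD-deleted replicate 2, and each time their share was 2.45 to 2.51 times that of all shared regions. Members called higher then numbered 77, 83, 90 and 53, and 120 without MyoD-deleted replicate 3. With the summit taken from the top vector peak only, 11.1% of 9733 E-box-only regions were lower and 2.25% higher, and with that of the top MyoD-deleted peak 11.0% of 9220 were lower and 2.09% higher. At an unadjusted p under 0.05, 2483 were lower and 679 higher. In 2719 members (28.7%) all 3 MyoD-deleted libraries ranked below all 3 vector libraries, against 15.9% of all shared regions, and in 817 (8.63%) they ranked above, against 14.1%.

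**Figure D2:**
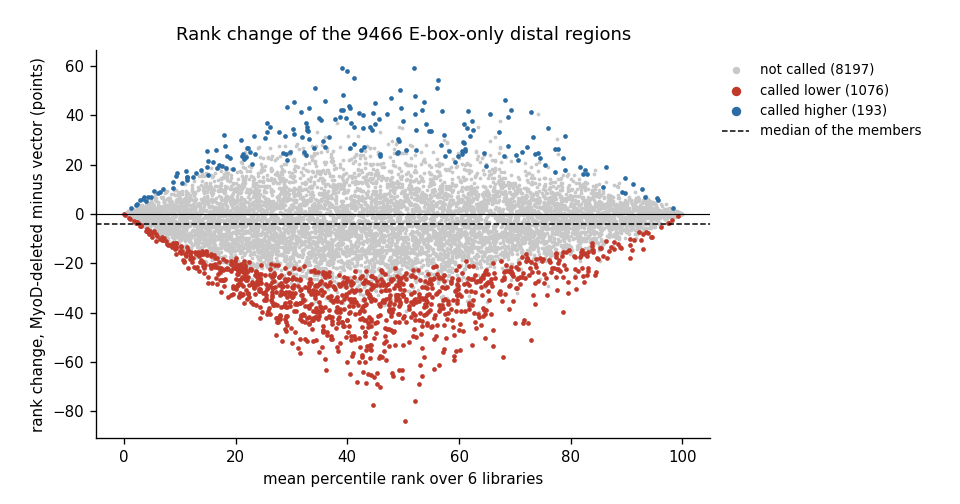
Mean rank over the 6 libraries (horizontal axis) against the rank change, MyoD-deleted minus vector, in percentile points (vertical axis), with 1 point per member. The 1076 members called lower (red) and 193 called higher (blue) occur across the range of ranks, and the dashed line is the median change of −4.09.

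The other shared distal classes gave other shares. Of the regions with AP-1 only, 8.99% were called higher and 2.30% lower. Of those with both sites, 4.22% were called higher and 6.33% lower, between the values of the regions with only 1 of the sites. Regions with neither site were called higher in 5.36% and lower in 3.92%. Within 2 kb of a 5′ end, 1.02% were called higher and 1.03% lower. Over all E-box-only distal regions found in any library, 20346 in number, 46.5% were called in all 6 libraries, 929 (4.57%) were called in all vector and no MyoD-deleted libraries and 463 (2.28%) the other way round. Over all merged regions those last shares were 1.78% and 4.56%.

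Summit height, the log2 of the pileup over the library's smallest background, was compared as a measure that does not divide by the local background. Centred on the median shared region, the members' median height was −0.09, −0.05 and −0.07 in vector replicates 1 to 3 and −0.37, −0.43 and −0.28 in the MyoD-deleted ones, and the groups did not overlap. Height fell in 2921 members (30.9%) and rose in 534 (5.64%), against a background of 12.8% lower and 11.4% higher (limma, adjusted p under 0.05). Without centring, when the median change of all shared regions is a rise of 0.23, 2008 members (21.2%) were lower and 1225 (12.9%) higher, against 8.03% and 24.7%. The members' median height was then 4.48, 4.60 and 4.53 in vector and 4.31, 4.43 and 4.58 in MyoD-deleted libraries, with overlap. The median change on that scale was −0.01 in members and 0.28 in the other shared distal regions. Of the 1076 members lower by rank, 994 were lower by centred height and 0 were higher, and of the 193 higher by rank 140 were higher and 1 was lower.

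The local background around the summits was read too. The members' median local background, as a multiple of the library's smallest background, was 2.33, 2.31 and 2.31 in vector libraries and 2.01, 2.04 and 2.18 in MyoD-deleted libraries. In regions with neither site it was 1.80 to 1.89 and then 1.92 to 2.02, the opposite direction. Over all members the median change of the local background was −0.07 on the log2 scale, and it was lower in 60.9%, against 0.05 and 39.0% over all shared regions. Among members called lower by rank it had dropped by a median of 0.43. In 1926 members height fell while the rank passed in neither direction, a choice that itself implies a lower background, and its median change there was −0.49. Where the pileup and the local background drop together, the fold enrichment, their ratio, changes less on the log2 scale than the larger of these drops.

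The share of members called lower was larger where the window held more E-boxes, given here as counts with no test. Of the 1076 members called lower, 1074 had their top summit in a vector library. All 193 called higher had it in a MyoD-deleted library. Comparisons of letters with calls, here and below, thus also follow which group set the summit. They are given for these summits only. The windows held 11892 CAGCTG sites, with 1 in 7470 members, 2 in 1620 and 3 or more in 376. Rank fell in 9.57%, 17.2% and 21.8% of them, and rose in 2.18%, 1.67% and 0.80%. The related E-box CAGGTG (or CACCTG on the other strand), which MyoD also binds, was present in 1587 members, of which 20.1% were called lower, against 9.61% of the 7879 without it. Counting both forms together, the share called lower was 7.95% with 1 site, 15.9% with 2, 24.2% with 3 and 25.9% with 4 or more. The lowest and highest shares by combination were 7.95% in the 6217 members with a single CAGCTG and no CAGGTG, and 29.3% in the 334 members with at least 2 CAGCTG and a CAGGTG. By height, 23.0% and 64.1% of these were lower. The share of members holding CAGGTG (16.8%) was close to that of regions with neither site (17.0%) and of all shared regions (15.3%).

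**Figure D3:**
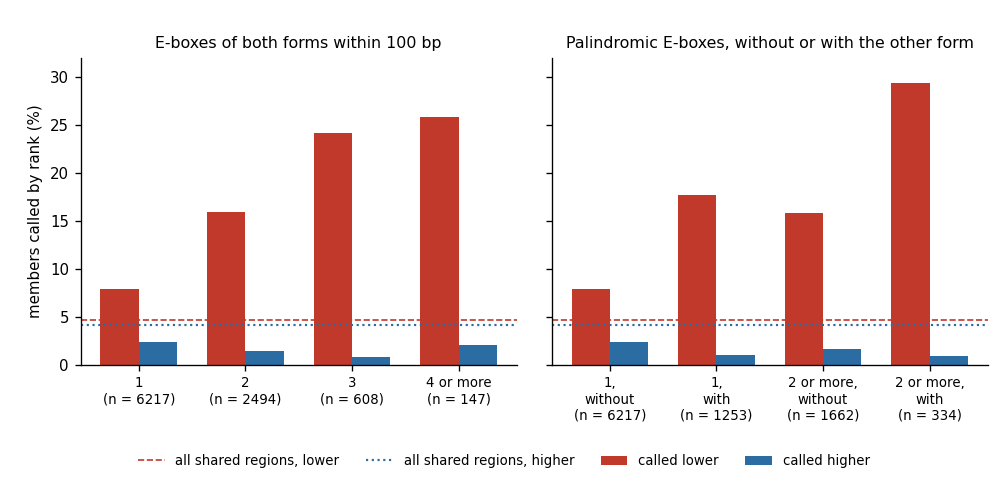
Share of members called lower (red) or higher (blue) by rank, in percent, by the number of E-boxes of both forms (left: CAGCTG and CAGGTG together) and by the number of palindromic CAGCTG without or with CAGGTG (right). Lines mark the 4.67% lower and 4.12% higher among all shared regions; the red bars climb from 7.95% to 25.9% on the left and reach 29.3% on the right.

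The bases on each side of the E-box nearest the summit also went with the calls. Over the 10 possible pairs, folded over both strands, the share called lower was highest at ACAGCTGC and ACAGCTGT, with 14.0% of 1874 and 14.0% of 823 members. It was lowest at CCAGCTGG, with 3.83% of 444, and CCAGCTGA, with 6.06% of 545, and there 4.50% and 5.14% were called higher. Among members with a single E-box the order was alike, from 12.8% at ACAGCTGC to 2.03% at CCAGCTGG. In the latter, 4.94% were called higher, near the background of all shared regions in that direction. Of the sequences above, the UNC80 E-box has a C before and a G after it, yet its rank fell. That window held 2 E-boxes. The IGFBP7 and OLAH E-boxes stand in ACAGCTGT, yet their ranks rose.

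The share called lower varied less with the distance of the E-box from the summit. The centre of the nearest E-box lay a median of 40.5 bp from the summit, and sites per base were most frequent at 20 to 30 bp on either side. The share called lower was 12.1% within 10 bp, 13.8% at 20 to 30 bp and 8.50% from 80 bp out. Members had a median mean rank of 45.4 where not called and 41.3 where called lower. With the members split into 4 equal parts by mean rank, the share lower was 9.89%, 15.8%, 13.2% and 6.51%, from the least to the most open.

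Other motifs were searched within 100 bp of the summit on both strands. The MEIS core TGACAG was in 20.3% of members, against 12.8% of regions with neither site and 13.6% of all shared regions. Part of that excess lies in the letters themselves, since TGACAG and CAGCTG overlap in 627 members. Members with a TGACAG clear of any CAGCTG were called lower in 15.3% of 1392, and those with only an overlapping one in 15.0% of 533, against 10.4% without the motif. CATTCC, the site of TEAD factors, was in 15.1% of members called lower and 23.8% of those called higher, against 18.4% of members not called. The GC-rich SP/KLF site GGGCGG was in 12.7% of members, 13.9% of the other shared distal regions and 24.5% of all shared regions, which include those near 5′ ends, and 8.09% of members with it were called lower. Of other E-boxes, CATATG was in 2.67% of members and 2.65% of all shared regions, and 17.4% of members with it were called lower. For the E-box CATCTG these were 19.5%, 16.4% and 13.5%. For the E-box CACGTG they were 4.17%, 4.40% and 7.85%. Of members with the RUNX site AACCACA (10.2%, against 8.23% of all shared regions) 11.0% were called lower, and of those with the NFI half-site TTGGCA (13.5% against 10.8%) 10.4%. The ETS site CCGGAAG was in 1.74% of members and 4.72% of all shared regions, and the CTCF core AGGGGGC in 6.82% and 9.30%, with 10.3% and 8.82% of such members lower. The CRE site TGACGTCA was in 50 members, 3 of them lower, and the PAX site GTCACGC in 87, 10 of them lower, with shares over all shared regions of 0.89% and 1.42%. The MEF2 consensus was in 66 members (0.70%, against 0.56% of all shared regions), of which 9 were called lower and 0 higher. All these are matches of letters, and binding was not measured in these libraries.

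The members lay in introns (4643), outside protein-coding genes (4124) and in exons (699), and the share called lower was 11.6%, 11.3% and 10.2%. From 2 to 5 kb from a 5′ end 10.0% were called lower, and beyond 500 kb 15.8%. By chromosome the share called lower ran from 8.18% (chromosome 14) to 14.7% (chromosome 6). The share called higher was largest on chromosome 12, with 19 of 474 members (4.01%), near the 4.12% of all shared regions. Of these 19, 2 lay nearest CTDSP2. The members had 5560 nearest genes, of which 967 had at least 1 member called lower, 191 at least 1 called higher and 28 both.

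Most of the 8 largest falls ended among the lowest ranks in MyoD-deleted cells. These falls, and the 8 largest rises, were chosen among members whose groups did not overlap, so that separation is not a result. The region nearest LMO3, which encodes a LIM-only cofactor, is intergenic at chr12:16972943-16973965. Its pileup was 131, 114 and 111 fragments in vector replicates 1 to 3 and 17, 13 and 14 in the MyoD-deleted ones, and its rank was 95.4, 90.7 and 90.7 against 15.1, 5.00 and 5.36. The groups stood far apart, and rank fell by 2.87 ± 0.21 (SE) inverse-normal units (limma, adjusted p = 9.4e-04) and height by 2.95 ± 0.20 (SE) on the log2 scale (adjusted p = 1.1e-07). It held 1 CAGCTG, 52.5 bp from the summit, and also CAGGTG.

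The region nearest DIAPH2, a formin that nucleates actin, lies between genes at chrX:95754118-95755216. It had ranks of 84.9, 83.5 and 81.7 in vector and 6.01, 6.49 and 5.36 in MyoD-deleted libraries. Both groups were tight, and rank fell by 2.53 ± 0.16 (SE) inverse-normal units (limma, adjusted p = 6.5e-04). The region nearest UNC80, part of the NALCN sodium leak channel, sits in an intron of MAP2, a neuronal microtubule protein (chr2:209600101-209601092). Its ranks were 90.2, 92.1 and 87.9 against 17.9, 2.45 and 22.4, and the change of −2.51 ± 0.28 (SE) units gave an adjusted p of 0.0029 (limma). MyoD-deleted replicate 2 was lowest there.

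An intron of FSTL5, a secreted follistatin-like protein, held a region (chr4:161521810-161522432) at ranks of 99.4, 99.0 and 96.8 in vector and 26.5, 43.4 and 72.3 in MyoD-deleted libraries. Here MyoD-deleted replicate 3 kept much of its rank. The remaining falls were in introns of CFAP20DC (mean rank 77.6 in vector and 9.18 in MyoD-deleted libraries), of BICRAL with RPL7L1 as the nearest 5′ end (59.6 and 3.29) and of MCUB, a subunit of the mitochondrial calcium uniporter (80.9 and 11.0), and upstream of INPP4B, an inositol lipid phosphatase (67.9 and 4.51). Their adjusted p was between 0.0024 and 0.0034 (limma).

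**Figure D4:**
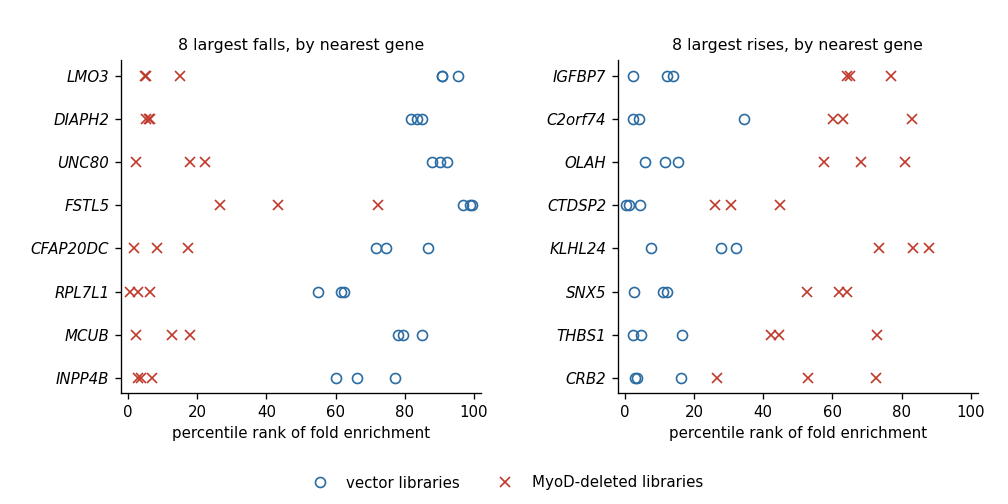
Percentile rank of fold enrichment (horizontal axis) of the 8 members with the largest falls (left) and the 8 with the largest rises (right), each by its nearest gene. Circles are the 3 vector and crosses the 3 MyoD-deleted libraries; the groups do not overlap in any row, as the rule that chose these regions required.

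Of the 8 largest rises, all but that in CTDSP2 began from weak peaks, with 10 to 31 fragments in vector libraries. In an intron of IGFBP7, a secreted IGF-binding protein (chr4:57080900-57081965), the pileup was 21, 10 and 18 fragments in vector and 76, 95 and 81 in MyoD-deleted libraries. The ranks were 12.3, 2.30 and 14.1 against 76.8, 65.0 and 64.2, and rank rose by 1.90 ± 0.25 (SE) inverse-normal units (limma, adjusted p = 0.0043). An intron of OLAH, a thioesterase of fatty acid synthesis (chr10:15035398-15036359), went from ranks of 5.87, 15.3 and 11.7 to 68.2, 57.6 and 81.1 (adjusted p = 0.0034 by limma). All 3 MyoD-deleted libraries lay far above the vector ones.

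The region in an intron of CTDSP2, a phosphatase of RNA polymerase II (chr12:57837744-57838743), had a local background of 65.1, 41.3 and 44.9 fragments in vector and 57.2, 54.4 and 62.2 in MyoD-deleted libraries, against a median of 4.55 to 7.94 over the members. These fragments are not scaled for depth. The smallest background was 3.41, 2.22 and 2.74 in vector and 2.27, 2.28 and 2.35 in MyoD-deleted libraries. As a multiple of it, the region's local background was higher in every MyoD-deleted library than in any vector library. RH30 is known to carry an amplified part of 12q13, and the part of copy number in the change was not tested. Its pileup was 251, 111 and 139 against 414, 516 and 459, and its rank rose by 1.75 ± 0.26 (SE) units (limma, adjusted p = 0.0059). Mean ranks of the other rises went from 13.7 to 68.7 in an intron of USP34 with C2orf74 nearest, from 22.5 to 81.5 in KLHL24, from 8.74 to 59.6 near SNX5, from 7.87 to 53.2 upstream of THBS1, which encodes thrombospondin 1, and from 7.59 to 50.7 in an intron of DENND1A with CRB2 nearest. Their adjusted p was between 0.0046 and 0.0195 (limma). In the USP34 region vector replicate 1 stood at rank 34.6 and the other vector libraries at 2.30 and 4.10. That call was lost without vector replicate 2 or 3 or MyoD-deleted replicate 2 (rises of 1.58, 1.71 and 1.67 units), and the CRB2 call without any of these or MyoD-deleted replicate 3 (1.28 to 1.55 units).

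The 4 most open members were chosen by their mean rank over all 6 libraries, so they stand at the top of the scale in both groups. The first pair, nearest BDP1 (chr5:71289608-71290334) and SERF1A (chr5:70585484-70586335), ranked at 100 in all 6 libraries to 3 digits. They lie in the duplicated part of 5q13, and the 66 bases around their E-boxes are identical, so reads of the 2 copies may not be told apart. Of 9152 members compared, 18 shared such a stretch with another member.
BDP1 region (chr5:71290004-71290069): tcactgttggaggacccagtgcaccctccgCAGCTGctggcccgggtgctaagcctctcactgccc
SERF1A region (chr5:70586021-70586086): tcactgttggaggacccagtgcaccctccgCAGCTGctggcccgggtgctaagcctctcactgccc
The other most open regions lay in an intron of KPNA6, an importin, with mean ranks of 99.8 ± 0.11 (SD, n = 3) and 99.9 ± 0.06 (SD, n = 3), and in an exon of RHBDD2 with POR nearest, with 99.9 ± 0.04 (SD, n = 3) and 99.8 ± 0.13 (SD, n = 3).

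MYOD1, which encodes MyoD itself, had 3 members upstream, at 65.8, 33.2 and 23.7 kb. They are given because the gene was the target, and were picked with their values known. At chr11:17653369-17654115 the pileup was 399, 285 and 336 fragments in vector and 159, 202 and 204 in MyoD-deleted libraries, while the local background was 51.2 to 79.7 in vector and at most 35.0 in MyoD-deleted libraries. Centred height fell by 0.78 ± 0.10 (SE) on the log2 scale (limma, adjusted p = 1.85e-05), and the groups did not overlap. The rank stayed at 11.9, 17.2 and 16.0 against 11.9, 15.4 and 13.0 and did not pass (adjusted p = 0.85). The members at chr11:17686047-17686772 and chr11:17694581-17696383 had height changes of −0.46 ± 0.11 and −0.42 ± 0.12 (SE) on that scale (limma, adjusted p = 0.0044 and 0.011). Without centring these 2 were no longer past the threshold (adjusted p = 0.12 and 0.21), whereas the first was (7.8e-04). The last was also not called without MyoD-deleted replicate 1 (−0.40), and its rank changed the other way, by 2.78 points, without passing (limma, adjusted p = 0.62).

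Genes of 8 lists were then read through the members nearest them. The lists were drawn up with results of these data known, so their counts are descriptions beside the 11.4% of members lower and 2.04% higher by rank and the 30.9% lower and 5.64% higher by height. Of the 49 members nearest 20 of 27 myogenic regulators, 8 were called lower and 0 higher by rank, and 25 lower and 0 higher by height, with a median rank change of −8.16 points. Those called lower lay nearest MEF2A (2), EYA2 (2), SIX2, EYA4, PITX3 and VGLL2. One MEF2A call was lost with any single library left out (−0.65 to −0.51 units), and the other without vector replicate 2 or 3 or MyoD-deleted replicate 1 or 2 (−0.99 to −0.66 units). Both were also lost with the replicate number as a block. MYOD1, with its 3 members, had 0 calls by rank.

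EYA2 encodes a transcriptional coactivator with phosphatase activity. Its upstream region (chr20:46810916-46811797) had ranks of 52.6, 57.8 and 48.0 in vector and 10.6, 5.46 and 14.4 in MyoD-deleted libraries, a fall of 1.37 ± 0.20 (SE) units (limma, adjusted p = 0.0054). A region in its intron (chr20:46978743-46979798) went from 78.1, 40.3 and 29.9 to 6.01, 2.45 and 8.66 (adjusted p = 0.015 by limma), with vector replicate 1 far above the others, and the call was lost without MyoD-deleted replicate 2 (−1.46 units). Neither region had overlapping groups. Another member, deeper in the gene, had mean ranks of 80.3 ± 4.30 and 84.7 ± 4.31 (SD, n = 3 each) and did not pass (adjusted p = 0.53).

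Of 44 members nearest sarcomere and contraction genes, 7 were called lower and 1 higher by rank, with a median of −3.13 points. By height 17 were lower and 1 higher. Those lower by rank lay nearest FLNC, MYH3, MYOM1, MYOM2, TTN and TPM1 (2), and the rise lay upstream of SMPX, where height did not pass. Of the 4 members nearest TPM1, 1 was lower and 1 higher by height. By the smallest p the list's region was an intron of CSMD1 on chromosome 8 with MYOM2, an M-band protein, as the nearest 5′ end, at mean ranks of 71.8 ± 5.94 in vector and 16.6 ± 15.0 in MyoD-deleted libraries (SD, n = 3 each, limma adjusted p = 0.012). Of 26 members nearest fusion, membrane and synapse genes, 4 were called lower and 0 higher by rank, near NCAM1, DMD, SGCD and DAG1. By height 13 were lower and 1 higher. The region upstream of SGCD, δ-sarcoglycan of the dystrophin complex (chr5:155839295-155840286), had ranks of 86.8, 87.5 and 89.2 against 39.1, 5.00 and 47.3 (limma, adjusted p = 0.012). The MyoD-deleted libraries spread widely there and all lay below the vector ones.

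E proteins and inhibitory bHLH factors had 25 members, of which 4 were called lower and 0 higher by rank, near TCF3, ID2, ID3 and BHLHE41. By height 11 were lower and 0 higher. ID proteins bind E proteins and keep them from DNA. The region upstream of ID2 (chr2:8436937-8437954) had ranks of 93.2, 73.0 and 51.9 against 26.5, 21.6 and 15.0 (limma, adjusted p = 0.017), and the call was lost without vector replicate 2 (−1.59 units) or MyoD-deleted replicate 2 (−1.55 units). Of 37 members nearest genes associated with PAX3-FOXO1, the fusion protein of this tumor type, 9 were called lower and 0 higher, by height 20 and 0. They lay nearest IGF1R (2), FOXO1, FGFR2, ALK, CNR1, JARID2, GREM1 and RASSF4. Near FGFR2, a growth factor receptor, the intergenic region (chr10:121309591-121310779) had pileups of 209, 146 and 166 in vector and 35, 39 and 32 in MyoD-deleted libraries, and its rank fell by 1.96 ± 0.15 (SE) units (limma, adjusted p = 9.4e-04).

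The remaining lists had few calls by rank. Of 27 members nearest AP-1, TEAD and YAP genes, with a median of −7.92 points, 1 was called lower and 0 higher by rank and 9 lower and 2 higher by height. The 1 call was in an intron of TEAD4 (chr12:3002946-3004128) with ranks of 31.0, 46.0 and 45.7 against 12.8, 6.78 and 11.4 (limma, adjusted p = 0.014). That call was lost without vector replicate 2 or 3 or MyoD-deleted replicate 2 (−0.98, −0.98 and −0.94 units). Of 18 nearest neural bHLH factors and neural regulators 1 was called lower, upstream of INSM1, at an adjusted p of 0.0499 (limma), and it was no longer called without any 1 library other than vector replicate 2, or with the replicate block, with changes of −0.88 to −0.66 units. Of 11 nearest DNA methylation genes 0 were called by rank and 4 (36.4%) were lower by height, near the 30.9% of all members. The one with the smallest p, in an intron of DNMT3L, had mean ranks of 46.9 ± 12.2 and 63.1 ± 1.09 (SD, n = 3 each, limma adjusted p = 0.18). Another 5 lay nearest DNMT3A, with rank changes from −14.5 to 3.87 points. Of these, 0 were called by rank, and by height 2 were lower and 0 higher. Near skeletal muscle markers 1 of 11 members was called lower, and near markers of other cell types, 1 of 13 members at endothelial genes (CDH5), 0 of 4 at blood genes and 0 of 2 at epithelial genes were called lower.

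**Figure D5:**
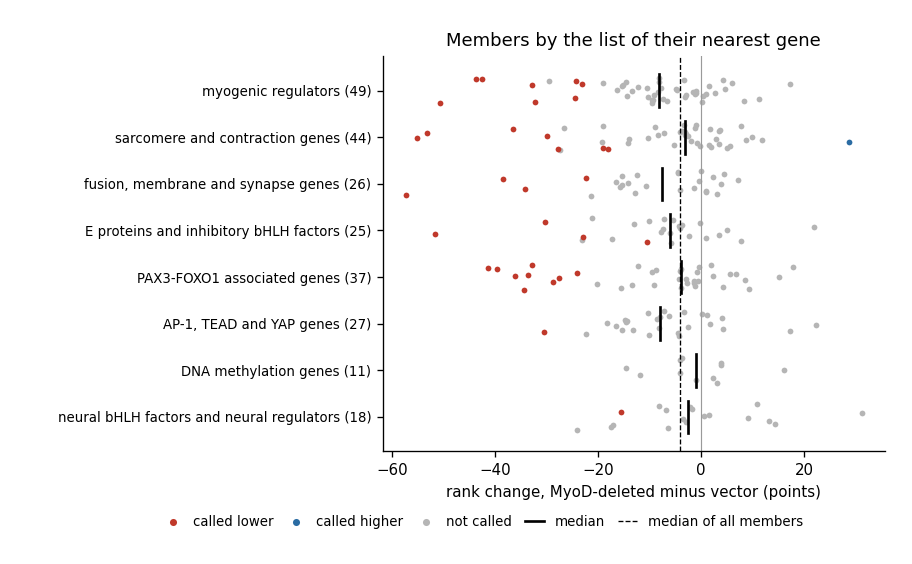
Rank change, MyoD-deleted minus vector in percentile points (horizontal axis), of the members nearest the genes of each list, with the number of members in brackets. Red points were called lower, the blue point higher and gray points neither; short bars are list medians, from −8.16 for myogenic regulators to −0.89 for DNA methylation genes, and the dashed line is the median of −4.09 over all members.

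Some genes gathered several members, and these were picked after their values were seen. Over all members 11.4% were called lower and 2.04% higher by rank, against 4.67% and 4.12% of all shared regions. By height 30.9% of members were lower, against 12.8% of all shared regions. BCOR had the most members, 15, of which 2 were called lower by rank, near the share of all members, and 10 by height. Of 6 members nearest PDZRN3, a ubiquitin ligase of the neuromuscular junction, 3 were called lower and 0 higher. The strongest, in its intron (chr3:73426852-73428161), had ranks of 63.5, 47.1 and 51.9 against 1.04, 1.51 and 5.36 (limma, adjusted p = 0.0029). In the same gene a member had a height rise of 1.01 ± 0.21 (SE) on the log2 scale (adjusted p = 0.0015), with ranks of 36.4, 32.8 and 18.4 against 28.6, 47.4 and 38.1 that overlapped. Both members nearest PLD1, phospholipase D1, rose. In the member at chr3:171640545-171641130 the ranks were 7.22, 18.3 and 16.6 in vector and 62.7, 37.9 and 52.7 in MyoD-deleted libraries (limma, adjusted p = 0.016). That call was lost without MyoD-deleted replicate 1 (0.99 units), and that of the other member without vector replicate 2 or 3 or MyoD-deleted replicate 1 or 2 (1.11 to 1.22 units).

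The values at the limits of the rule are given without a test. The members just over 2 kb from a 5′ end, nearest PDP2 (2005 bp) and ADGRB2 (2009 bp), had rank changes of 13.1 and 0.48 points, and the regions just under it, nearest PLEKHS1 (1996 bp) and RDH13 (1992 bp), of −11.6 and 4.16. Where the E-box lay just inside 100 bp the changes were 4.53 (GPR3) and 0.59 (RHOC), and just outside −22.9 (SLC44A3) and −18.0 points (GPSM2). The 1223 members with the nearest E-box at 80 to 97 bp had a median of −2.83 points, and 1091 distal regions with it at 98 to 120 bp had −1.97.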

How the data were processed

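ATAC-seq libraries from 3 vector and 3 MyoD-deleted samples of RH30 cells were compared. According to the paper and the labels, paired-end reads were aligned by the authors with Rsubread (hg38), proper pairs were retained, and MACS2 peaks were called in each library without pooling, after bcl2fastq 2.20 and FastQC. The paper states that problem regions on an exclusion list were removed. Whether this was done before the peaks were written is not given in the sources used here. The deposited files are 1 peak list per library, not counts: the deposited score was not used, the fold enrichment as deposited divides pileup by local background, a ratio within a library, and the authors' −log10 p and −log10 q refer to each summit. The authors' comparison with DESeq2 on read counts was not repeated.

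Peaks on chromosomes Y and M were left out. Pileup and background were recovered from fold enrichment and −log10 p (100% of peaks, relative tolerance 0.0001). The depth of each library is unknown, so no counting error is given. The distal limit used the 5′ ends of 20046 protein-coding genes (GENCODE version 44), and sequences came from GRCh38. Inverse-normal ranks and summit heights of 47847 regions were compared with limma 3.58.1 (eBayes with a trend, Benjamini-Hochberg adjustment, threshold 0.05, two-sided, no block) in R 4.3.3, after Python 3.11.15. Steps were tested on simulated data. One motif that was searched is not reported here.

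The members and lists were chosen with earlier results of these data known. Regions named are the 8 largest falls and rises past the threshold with groups that did not overlap, the 4 most open, the smallest p per gene list and those at the limits of the rule; MYOD1, MEF2A, BCOR, PDZRN3, PLD1 and the intron regions of EYA2 were added after their values were seen. Alternatives were peaks with −log10 q from 5 upward, the same number of peaks taken from every library, a call only where peaks cover 50% of a region or more, a window of 50 bp, a limit of 5 kb, 5′ ends of all transcripts, ranks of −log10 p, summit height, the replicate number as a block and each library left out, and, added after seeing the data, the summit taken from 1 group's libraries.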

Additional observations from a re-analysis of the deposited data

How the results depend on the processing

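The median rank change of the members stayed between −4.81 and −3.26 points under the alternatives run, always a fall. Of the 35 regions named with a test, 0 changed direction with the block, centred height (the MYOD1 members, height without centring) or a library left out. With peaks covering at least 50% of a region, 555 members were ranked lower and 117 higher, and with the E-box within 50 bp of the summit there were 5488 members, 675 lower and 106 higher. Ranks of −log10 p gave 2499 lower and 409 higher, centred summit height 2921 and 534, and height without centring 2008 and 1225. The rule on −log10 q, equal numbers of peaks, the 5 kb limit and the 5′ ends of all transcripts left the counts within 1.5 times. So did the summit of either group's top peak alone, chosen after seeing the data. With 1 library left out, from 405 to 951 members were ranked lower and from 53 to 235 higher, and by height 2261 to 3095 were lower and 365 to 678 higher. Where all shared regions were fitted again, the share of members called lower was 2.40 to 2.67 times that of all shared regions. Leaving out a library lost the call in 2 to 9 of these 35 regions, depending on the library.

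The replicate number did not pair the libraries: the correlations of same-numbered deviations were −0.041, −0.098 and 0.041. With the replicate number as a block, 763 members (8.06%) were ranked lower and 127 (1.34%) higher, against 3.16% and 2.86% of all shared regions, and by height 2785 and 502. The calls of INSM1 and both MEF2A regions were lost. Depth is unknown in these lists, and a member with a pileup of about 10 fragments has a coarse rank, since many regions share that value.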
